A study of Oryza sativa with 3 samples.

Results

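Chitinases, germin-like proteins and PBZ1, a pathogenesis-related protein, were described in rice leaves. The members were all probe sets assigned to a single gene whose symbol or synonym was Cht, Chia, Chib, GER or GLP followed by digits, with or without hyphens, or a form of PBZ1, PR1a, PR1b, PR5 or PR10. The rule used names only, though it was chosen with earlier results of these data known. It matched 23 genes in the annotation, of which 20 had probe sets: 26 of the 57194 probe sets analysed, and 20 of 17905 genes. The families were 10 chitinases (13 probe sets), 9 germin-like proteins (12 probe sets) and PBZ1 (1 probe set), and no gene matched the PR1a, PR1b or PR5 names. The other 3 matched genes, LOC4333121 (Cht12, RCH10), LOC4338718 (OsChia1b) and LOC112935981 (RGLP2), had no probe set assigned to them alone and were not analysed here.

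The RNA came from leaves of the early-flowering japonica rice cultivar Kitaake, grown in a greenhouse until 6 weeks old. The 3 replicates formed 1 group of plants raised side by side, with 1 Affymetrix rice array each. No treatment, pathogen, genotype or time was compared, so the data give the signal of each gene and its spread over replicates, and no test between conditions. The labels do not say how many plants a replicate holds, and the spread between these samples may be partly technical. Some names are carried by several genes: Cht2 here is LOC4349267 (also Cht8), Cht1 is LOC4342115 and Cht9 is LOC4338719, which the annotation also calls Cht1. The annotation also gives the name Cht2 to LOC4338718 (OsChia1b) and the name GLP2 to LOC112935981, neither of which was analysed here.

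Chitinases cut chitin, the polymer of fungal cell walls and insect cuticles. Fragments released from it are recognised by receptors at the plant cell surface and start immune signalling. Germin-like proteins are cell wall proteins of the cupin superfamily, and some of them act as superoxide dismutases or oxalate oxidases that produce hydrogen peroxide. In rice a cluster of germin-like genes has been linked to resistance to blast, a fungal disease. PBZ1 is a small intracellular protein of the PR-10 family, named for its induction by probenazole, a chemical used against blast, and it is a common marker of rice defence responses.

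Values are log2 signals, so a difference of 1 is 2-fold. Probes differ in how strongly they bind, so no gene is ranked against another by amount of transcript. A probe set was called above background when its signal exceeded the 95th percentile of the 64 reporter probe sets on the same array, which was 5.64, 5.60 and 5.77 in replicates 1, 2 and 3. All 7 leaf markers tested, among them the light-harvesting gene LHCP (LOC4333359) and plastocyanin PETE (LOC4339833), were above that bound on every array, with means from 13.29 to 14.66. Of markers for other tissues, 3 of 5 root, 2 of 4 anther, 3 of 4 seed and 2 of 3 shoot meristem genes were above it on every array. Of all genes 74.3% were, so passing this bound did not by itself set leaf genes apart. In bulk leaf RNA, fewer cells of a type and less RNA per cell cannot be told apart.

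Of the 20 member genes, 10 were above background on all 3 arrays, 8 were above it on no array, and Cht4 and GER5 were above it on some. Across all 17905 genes, 4097 were above it on no array, and the share above it on every array was 74.3%. The families were unlike each other in this count: 7 of 10 chitinases and PBZ1 were above background on every array, against 2 of 9 germin-like genes. The median of the gene means was 7.29 for chitinases and 5.07 for germin-like proteins, against 8.11 for all genes. No test was made of these differences, since they are between probe sets with different probes.

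**Figure D1:**
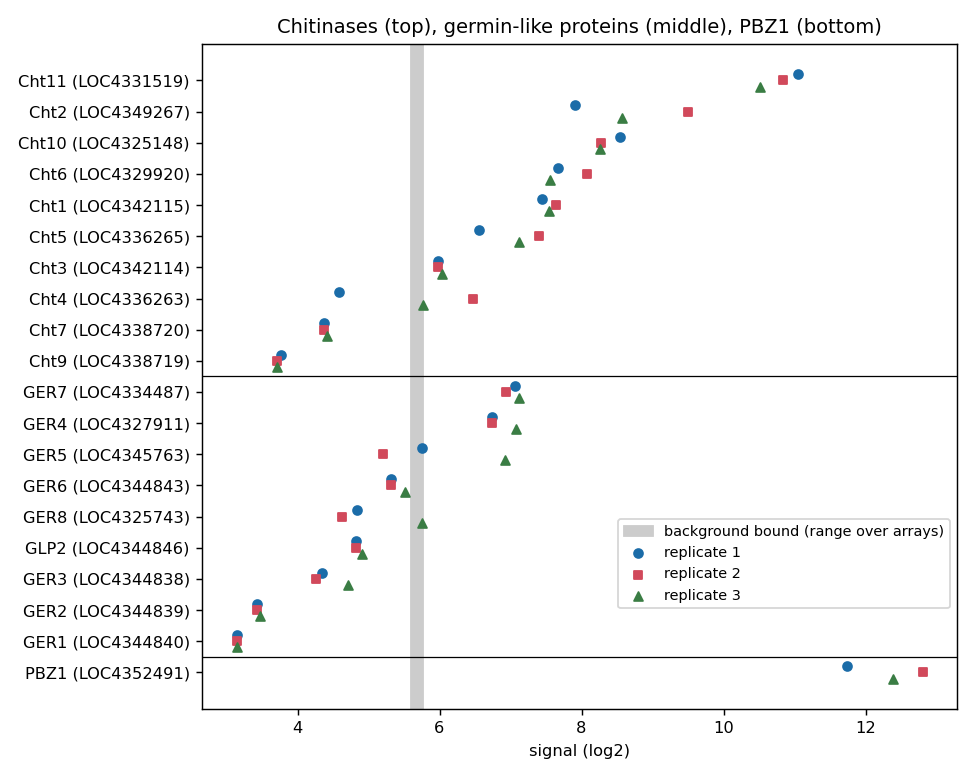
Log2 signal (horizontal axis) of the 20 member genes (vertical axis), by family and, within a family, by mean; each point is 1 array, and the grey band runs over the background bounds of the 3 arrays, from 5.60 to 5.77. PBZ1 lies near 12 on every array, 7 chitinases lie right of the band on every array, and all germin-like genes other than GER7, GER4 and GER5 have no point above the bound of its own array.

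Among the chitinases, Cht11 (LOC4331519) had the highest mean, 10.80 ± 0.27 (SD, n = 3), with signals of 11.05, 10.84 and 10.52 in replicates 1, 2 and 3. Cht10 (LOC4325148) had 8.54, 8.28 and 8.26. For both genes replicate 1 was the high array and replicate 3 the low one. Cht6 (LOC4329920) had 7.67, 8.08 and 7.55, with replicate 2 above the others. Cht1 (LOC4342115, OsChia1a), a chitinase whose name places it in class I, had 7.44, 7.65 and 7.54, a range of 0.20.

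Cht2 (LOC4349267, OsChia2a) had signals of 7.91, 9.51 and 8.57 in replicates 1, 2 and 3, with a mean of 8.66 ± 0.80 (SD, n = 3). It was above background on every array, and replicate 2 was 3.02-fold above replicate 1. Cht5 (LOC4336265, OsChia4a) had the same order at a smaller size, with 6.55, 7.41 and 7.12, a 1.81-fold range. Cht4 (LOC4336263, OsChia2b) had 4.58, 6.48 and 5.76, a range of 1.89. Its signal passed the background bound in replicate 2 alone, and the value in replicate 3 lay just under the bound of 5.77, so no fold is given. Cht4 and Cht5 are direct neighbours among protein-coding genes in the RefSeq annotation.

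The remaining chitinases hardly moved. Cht3 (LOC4342114, OsChia1c) had 5.99, 5.99 and 6.03, just above background. Its neighbour in the annotation is Cht1, and its probe sets are of a type that may also bind related transcripts, so the signal cannot be assigned to Cht3 alone. Cht7 (LOC4338720, OsChia1d) had 4.38, 4.38 and 4.42 and Cht9 had 3.77, 3.71 and 3.71, all below background. Cht7 and Cht9 are also direct neighbours of each other, and LOC4338718, which has no probe set of its own here, lies next to Cht9.

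Of the germin-like genes, GER7 (LOC4334487) had signals of 7.06, 6.93 and 7.12 in replicates 1, 2 and 3, and GER4 (LOC4327911) had 6.74, 6.74 and 7.07. These are the germin-like genes above background on every array, and their ranges were 0.19 and 0.33. GER5 (LOC4345763), also named OsGLP1, had 5.76, 5.20 and 6.92, with a mean of 5.96 ± 0.87 (SD, n = 3) and a range of 1.71. It was above background in replicates 1 and 3 and below it in replicate 2, so no fold over the whole range is given. Replicate 2, the array with the highest signal for PBZ1 and Cht2, was the one with the lowest signal for GER5.

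GER8 (LOC4325743) had 4.83, 4.63 and 5.75 and stayed below background on every array, although its range of 1.12 passed 2-fold. GER6 (LOC4344843) had 5.32, 5.32 and 5.52, GER3 (LOC4344838) had 4.35, 4.26 and 4.71, and GLP2 (LOC4344846) had 4.83, 4.83 and 4.90. GER2 (LOC4344839) had 3.43, 3.43 and 3.47, and GER1 (LOC4344840) had 3.14 on all 3 arrays. GER6, GER3, GLP2, GER2 and GER1 lie close together in the annotation. GER3, GER2 and GER1 follow each other directly, 2 protein-coding genes separate GER1 from GER6, and 2 separate GER6 from LOC112935981, which is next to GLP2. None of these 5 passed the background bound on any array, a class that held 4097 of all 17905 genes. GER4, GER5, GER7 and GER8 are not next to them.

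PBZ1 (LOC4352491) had signals of 11.74, 12.81 and 12.39 in replicates 1, 2 and 3, with a mean of 12.31 ± 0.54 (SD, n = 3). It was far above background on every array, without any treatment in the design. Replicate 2 was 2.1-fold above replicate 1, and replicate 3 lay between them. Of all 17905 genes, 0.748% had a range at least as wide.

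Over the 3 arrays, 5 of the 20 member genes spanned at least 2-fold: Cht4, GER5, Cht2, GER8 and PBZ1. Across all genes 179 of 17905 did so, or 1.0%. The members were chosen with earlier results of these data known, so setting their count beside this share is no test. Among genes above background on every array the share was 0.790% (105 of 13299), and 2 of the 10 such members, Cht2 and PBZ1, spanned 2-fold. Among all other genes it was 1.61%, and 3 of the 10 members there, Cht4, GER5 and GER8, spanned 2-fold. The spans of Cht4, GER5 and GER8 include signals below background and are not sizes of a measured change. Ordered by range over all genes, Cht2 stood at place 34 and PBZ1 at 134. The median range was 0.40 for chitinases and 0.20 for germin-like genes, against 0.16 for all genes. The 2-fold spans rested on particular arrays: GER5 and GER8 remained without replicate 1, Cht4 and GER5 without replicate 2, and Cht4, Cht2 and PBZ1 without replicate 3.

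**Figure D2:**
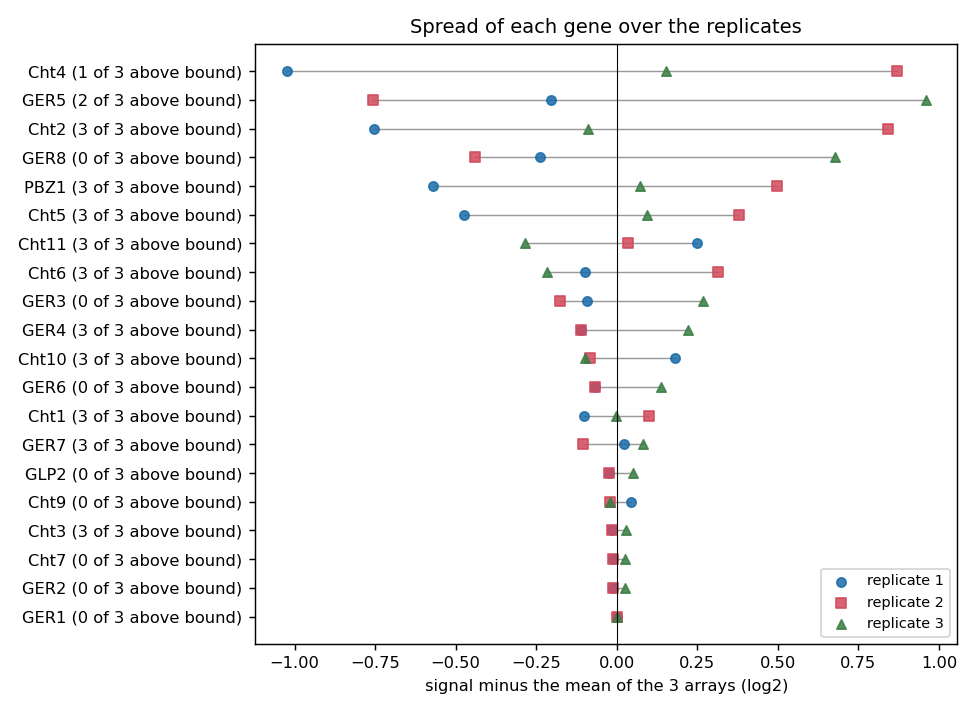
Signal minus the gene's own mean over the 3 arrays (horizontal axis, log2) for each member gene (vertical axis, widest range at the top), with 1 point per array and a line over the range; the labels give on how many arrays the gene was above background. Cht4, Cht2, PBZ1 and Cht5 have replicate 1 at the left and replicate 2 at the right, while GER5 and GER8 have replicate 2 at the left and replicate 3 at the right.

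The families were not most often highest on the same array. Chitinases were highest in replicate 2 in 5 of 10 genes, in replicate 1 in 3 and in replicate 3 in 2. The shares of all genes highest in replicates 1 and 2 were 23.6% and 28.8%. For replicate 2 it was 35.3% among genes above background on every array, with 4 of the 7 such chitinases. Cht2, Cht4, Cht5, Cht1 and PBZ1 had their lowest signal in replicate 1 and their highest in replicate 2, that is 5 of the 20 members and 0 of the 9 germin-like genes. Of all genes 5.80% had this order. Among those above background on every array it was 7.15%, with 4 of the 10 such members. Cht4 was above background in replicate 2 alone. Over the chitinases the median difference of an array from the mean of the others was 0.10 in replicate 2, -0.08 in replicate 1 and -0.02 in replicate 3. The same medians over all genes were 0.02, 0.01 and -0.04.

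Germin-like genes were highest in replicate 3 in 8 of 9 cases, the exception being GER1, which was equal on all arrays. Of all genes 17.4% were highest in replicate 3. The share was 11.4% for genes above background on every array and 36.0% for genes above it on no array, the class of 6 of the 9 germin-like genes. Of those 6, 5 were highest in replicate 3. The lower part of the distribution was also slightly higher on that array, with a 25th percentile over all probe sets of 4.30 in replicate 3 against 4.25 in the others. GER7 and GER4, above background on every array, were highest in replicate 3 as well, by 0.06 and 0.33 over replicate 1. The median difference of replicate 3 from the mean of the others was 0.20 over the germin-like genes. With differences under 0.1 counted as ties, 5 of the 9 remained highest in replicate 3: GER3, GER4, GER5, GER6 and GER8.

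**Figure D3:**
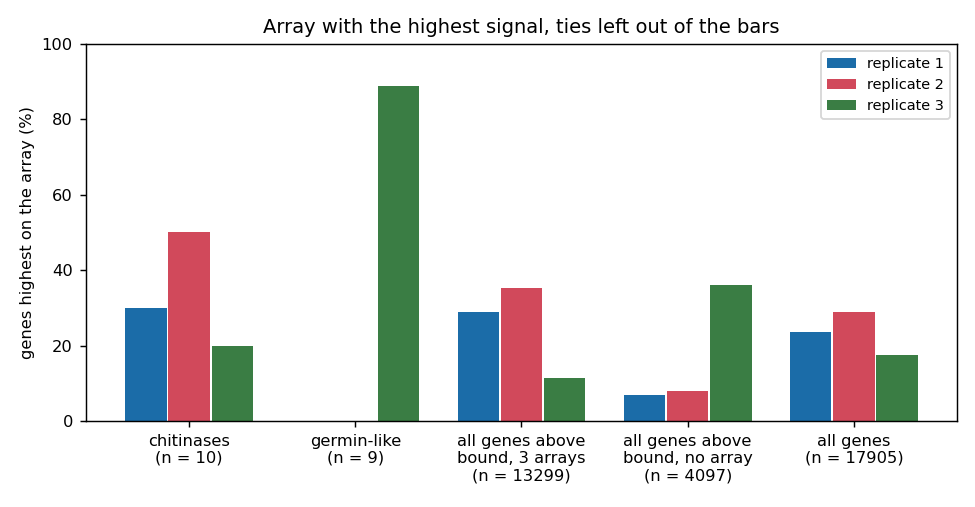
Share of genes (vertical axis, percent) whose signal was highest on each array, for the chitinases, the germin-like genes and all genes, with all genes also split by their place against the background bound; exact ties count for no array. Germin-like genes were highest in replicate 3 in 8 of 9 cases, against 17.4% of all genes. Of the 6 germin-like genes above background on no array, 5 were highest there, against 36.0% of all genes in that class. Chitinases were most often highest in replicate 2, at 5 of 10, against 28.8% of all genes.

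Control transcripts added to the RNA moved with the arrays too. The 36 poly-A spike probe sets, which belong to 4 transcripts, all exceeded the mean of the other arrays in replicate 2, by a median of 0.29. In replicate 3 they were lower in 35 of 36, by a median of -0.19. Replicate 2 minus replicate 1 was 0.25 as a median over the spikes, against 1.59 for Cht2, 1.07 for PBZ1 and 0.85 for Cht5, which were above background on every array. The part of labelling in these differences was not tested. The root marker IRT1 (LOC4333669), an iron transporter, had 7.51, 8.44 and 7.91, the same order as PBZ1, and its part was not tested either. It was the one root marker of 5 with this order: Lsi1 was highest in replicate 1, Lsi2 and YSL15 were highest in replicate 3, and NAS1 was equal on all arrays.

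For 4 member genes several probe sets were available. The Cht2 probe sets did not agree in level: the probe set whose values are given above and a probe set with the _s_at suffix, with 8.28, 9.56 and 8.73, both had replicate 2 highest and replicate 1 lowest. The third was below background with 3.78, 3.92 and 3.98. With the mean of its probe sets the range of Cht2 was 1.01 in place of 1.59. For GER8 the range of 1.12 came from 1 of 3 probe sets, the others having ranges of 0.10 and 0.00, and the mean of the probe sets had a range of 0.41. All GER8 probe sets may also bind related transcripts, so the signal cannot be assigned to GER8 alone. Without the members that have only such probe sets, 4 member genes spanned 2-fold and 7 germin-like genes were highest in replicate 3. Both Cht3 probe sets lay near the bound, at means of 6.00 and 5.60, and both GLP2 probe sets lay below it, at 4.85 and 4.46.

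**Figure D4:**
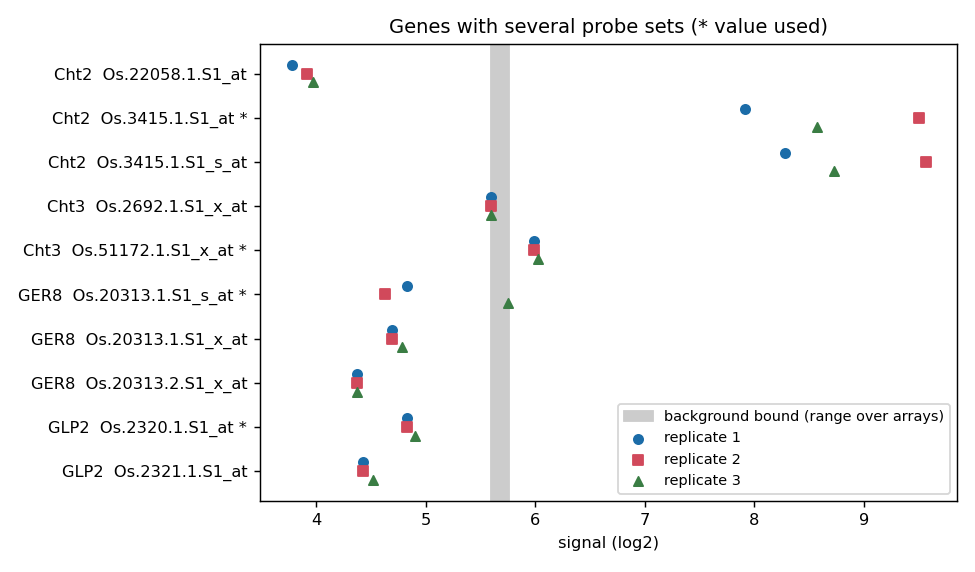
Log2 signal (horizontal axis) of each probe set of the 4 member genes that have several (vertical axis), with 1 point per array and the grey band over the background bounds; a star marks the probe set used for the gene. The starred Cht2 probe set and the Cht2 probe set with the _s_at suffix show replicate 2 to the right of replicate 3 and replicate 1. The third Cht2 probe set lies near 4 on all arrays.

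Genes that act before or beside the members were listed by name. Of the 20 matched genes of chitin perception and immune signalling all were above background on every array, against 74.3% of all genes. Of these, 12 were highest in replicate 2, against 35.3% of genes above background on every array. The order of PBZ1 and Cht2, lowest in replicate 1 and highest in replicate 2, was found in 7 of the 20, against 7.15% of such genes. Replicate 3 was the lowest array for 9 of the 20, against 60.1% of genes above background on every array. Replicate 1 was the lowest for 8 of the 20, against 13.9% of such genes. This list and that of other pathogenesis-related families were chosen with earlier results of these data known. Setting their counts beside these shares is therefore no test. Among the 7 with the order of PBZ1, CEBIP and SGT1 had ranges of only 0.10 and 0.11. CEBIP, the receptor that binds chitin at the cell surface, had 6.38, 6.48 and 6.44 in replicates 1, 2 and 3. WRKY76 (LOC4347069), a transcription factor, had 7.04, 8.89 and 8.04 and was the gene of this list that spanned 2-fold. NH3 (LOC4333666), a relative of the salicylic acid regulator NPR1, had 8.78, 9.38 and 9.21. PAL (LOC4330034), for phenylalanine ammonia-lyase at the entry of phenylpropanoid synthesis, had 10.21, 9.93 and 10.76, the order of GER5. The values of PAL and NH3 are from 1 of 5 and 1 of 4 probe sets, and the others are not given here.

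Of other pathogenesis-related families, 9 genes were matched by name, 4 of them above background on every array, against 74.3% of all genes. None of the 9 spanned 2-fold, against 1.0% of all genes. No beta-1,3-glucanase, thionin, thaumatin-like or further PR-10 gene was matched by these names. The lipid transfer protein LTP (LOC4351318) had 12.47, 12.96 and 12.73, the order of PBZ1 within a range of 0.49. LTPL1 (LOC4332993) had 12.47, 12.47 and 12.36, the peroxidase PRX112 had 8.34, 8.56 and 8.34, and the protease inhibitor RBBI3.3 (LOC9271230) had 8.21, 8.27 and 8.59. LTP and RBBI3.3 each have 1 probe set here, of a type that may also bind related transcripts. Their signals cannot be assigned to these genes alone. The xylanase inhibitor RIXI (LOC4351194), which the annotation also names Chib3H-a, had 3.52 on all 3 arrays. Chib3H-h (LOC4351187) had 5.79 on all 3 arrays. These Chib names carry letters after the digit and so fell outside the name rule.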

How the data were processed

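Per the labels' protocols, leaf RNA was prepared with TRIzol and a column DNase step, and biotin-labelled material was hybridised to Affymetrix rice arrays. The authors deposited log2 signals, made with RMA per the submitters' processing notes. For RMA's version and settings the sources used here give nothing. Their equal medians of 5.63 show a normalization between arrays. Median polish, part of RMA as usually run, returns exact ties: 14.3% of genes were equal on all 3 arrays (tolerance 1e-09), so an SD of 0 is not an exact measurement. Precision is limited by the number of arrays.

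The table held 57381 probe sets, of which 187 were controls or reporters and were not analysed. The platform annotation gave 1 gene for 22436 probe sets, several for 95 and none for 34663. All 17905 genes were found by identifier in a RefSeq table (ASM3414082v1), used for names and neighbours only. For a gene with several probe sets, those ending in _x_at or _s_at were used only where no other existed, and of the rest the brightest on average was taken. From TLP names, genes also named TULP were left out, and an actin gene was left out of RAC1.

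The members, the lists and the rule for named genes (PBZ1, Cht2, Cht4, GER5 and, per family, the highest means and widest ranges, others as members of a list) were chosen with earlier results of these data known, as was the background bound. With 1 group no test was run. Counts were computed with Python 3.11.15, numpy 2.4.6 and pandas 2.3.3. The code for the highest array, the 2-fold span, the array differences and quantile normalization was run on simulated data. That simulation had less noise than these arrays and no exact ties, so it checked the code and not the counts. Alternatives were the bound, the fold, ties, normalization, the probe set per gene and leaving out each replicate.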

Additional observations from a re-analysis of the deposited data

How the results depend on the processing

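Over 16 alternative settings 170 counts and medians were recomputed, and 156 of them stayed within 1.5 times the count given or within 1 SD over arrays. That SD was of the family median, 0.27 for chitinases and 0.40 for germin-like genes. It exceeded every median difference of an array from the others, so even a change of sign counted as staying. Centring on the array median could change nothing, since the medians were already equal. The share that stayed is therefore no measure of robustness. The median of reporters as the bound put 17 member genes above background in place of 10. The count of genes spanning 2-fold, 5, was 2 among genes above the bound on every array, and 2 to 3 when 1 replicate was left out. Allowing letters after the digits of a name, a setting chosen after seeing the data, added 2 genes with Chib names to the chitinases. These were Chib3H-h and RIXI, a xylanase inhibitor, and the family median fell to 6.51. With differences under 0.1 as ties, 5 member genes were highest in replicate 3 in place of 10, all of them germin-like. With quantile normalization again, 6 genes were lowest in replicate 3 in place of 3, and 7 germin-like genes were highest there. When 1 replicate was left out, the number highest was 4 to 7 in replicate 1, 6 to 8 in replicate 2 and 10 to 15 in replicate 3, and the number lowest was 6 to 15 in replicate 1, 7 to 10 in replicate 2 and 4 to 8 in replicate 3, since a comparison of 2 arrays has no middle value. The chitinase median in replicate 3 ran from -0.20 to 0.04. Of 158 recomputed ranges of single genes 23 moved by more than the gene's SD. No paired analysis was possible because there is 1 group. The dim genes have only a bound: order among values below it is not a measured difference.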
